A study of Homo sapiens with 6 samples.

Results

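U6 and U6atac are the small nuclear RNAs (snRNAs) at the catalytic centre of the major and the minor spliceosome. The genes examined here were RNU6-1, RNU6-2, RNU6-7, RNU6-8, RNU6-9 and RNU6ATAC, 6 of the 59716 genes that the RefSeq table for GRCh38.p14 places on chromosomes. They were chosen by name, and every peak that overlapped one of them by at least 1 bp was kept whatever its strand. This gave 21 of the 9974 peaks in the 4 lists analysed. The peaks come from FLASH-seq, in which ultraviolet light crosslinks RNA to a tagged protein that is then purified. The baits were the HSP70 chaperones HSPA1A, which is induced by stress, and HSPA8, which is made constitutively. Both carried a 3xFLAG-HBH tag and were induced with tetracycline at 1 µg/ml in the cell line HEK293 Flp-In T-Rex, derived from human embryonic kidney. There were 2 biological replicates per bait, with 1 peak list each. Peaks of the GFP control bait were not analysed here, so a background in control samples cannot be given, and the amount of U6 RNA in the cells was not measured. Peak lists do not measure expression, so the cell line was not checked against marker genes.

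U6 is made by RNA polymerase III from a promoter that lies before the gene, unlike most other spliceosomal snRNAs, which polymerase II makes. Its 5′ end carries a stem-loop, its middle pairs first with U4 and then with U2 and the 5′ splice site, and its 3′ end is a run of uridines held by La and later by the LSM2 to LSM8 ring. U6atac takes the same place in the minor spliceosome, where it pairs with U4atac, and it is far less abundant than U6.

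The U6 genes are full copies of 107 bp each. RNU6-1 lies on chromosome 15 from 67839939 to 67840045, and RNU6-2 on chromosome 19 from 1021522 to 1021628, 398 bp from TMEM259. RNU6-9 lies on the same chromosome from 893484 to 893590, 296 bp from MED16. RNU6-7, on chromosome 14 from 32202045 to 32202151, and RNU6-8, from 32203163 to 32203269, are neighbours 1011 bp apart. None of these 5 overlaps another gene of the table. RNU6ATAC, of 126 bp, lies on chromosome 9 from 134164439 to 134164564. The lncRNA gene LOC124902297 overlaps or adjoins it. How much the 2 genes share was not checked, so a peak there is uncertain between them.

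Each of the 5 U6 genes carried exactly 1 peak in every list, 20 peaks in all, whereas RNU6ATAC carried 1 peak in HSPA1A replicate 2 and 0 in the other 3 lists. A peak in all 4 lists was found at 0.872% of all genes, at 3.16% of genes of at most 300 bp and at 28.4% of the 148 other genes of biotype snRNA. A peak in HSPA1A replicate 2 alone, the pattern of RNU6ATAC, was found at 0.367% of all genes. Within 1000 bp on either side of each member, 0 further peaks were listed that did not lie on the member itself. The U6 copies are near-identical and how reads matching several copies were treated is not given in the sources used here. The 5 copies are therefore not 5 independent observations, and a peak on one copy cannot be told apart from RNA made by another.

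All peaks on a given gene lay on a single strand: plus for RNU6-2, RNU6-7 and RNU6-9, minus for RNU6-1, RNU6-8 and RNU6ATAC. Positions along the RNA were counted from 1 at the gene end where the strand of the peak begins, which takes the peak to lie on the strand of the RNA. Read this way, the peaks of RNU6-1 and RNU6-2 began within 1 nt of each other and ended at the same position in every list. Counted from the lower coordinate instead, their starts were 7 to 26 nt apart. RNU6-8 and RNU6-7 matched in the same way, within 1 nt by strand and 3 to 18 nt apart without it. The direction of each gene was not given in the table used, so this shows that the copies lie in 1 orientation relative to their peaks.

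On RNU6-1 the peak ran from position 26 to 101 in HSPA1A replicate 1, from 23 to 104 in HSPA1A replicate 2, from 28 to 107 in HSPA8 replicate 1 and from 8 to 107 in HSPA8 replicate 2. RNU6-2 gave the same ends in every list and the same starts, except for a start at 27 in HSPA8 replicate 1. Both HSPA1A lists and HSPA8 replicate 1 thus left the beginning of the RNA outside the peak, and HSPA8 replicate 2 stood apart with a peak over nearly all of it. On RNU6-9 the peak ran from 29 to 104 and from 23 to 105 in the HSPA1A lists, and from 28 to 107 and from 8 to 107 in the HSPA8 lists. On RNU6-7 it ran from 26 to 97 and from 23 to 96 with HSPA1A, and from 28 to 98 and from 6 to 99 with HSPA8. RNU6-8 differed from RNU6-7 by a start at 27 in HSPA8 replicate 1 and in no other position.

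**Figure D1:**
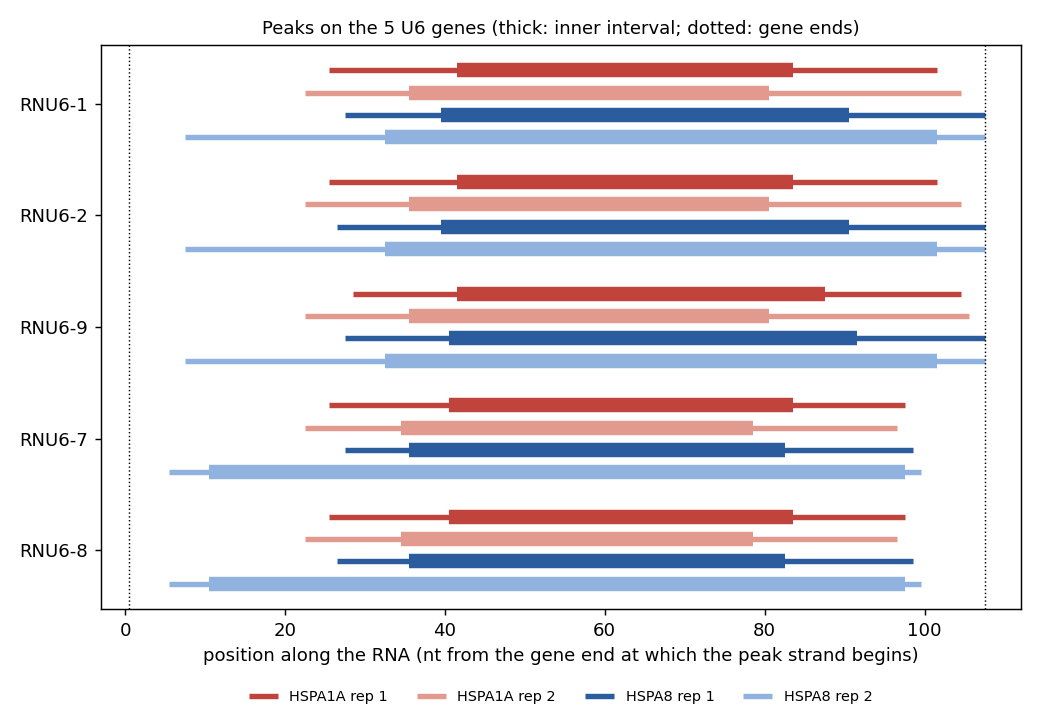
Peaks on the 5 U6 genes, drawn along the RNA in nt on the horizontal axis, with 1 line per list and gene; the thin line is the whole peak and the thick line the inner interval that the files give. Peaks of HSPA8 replicate 2 begin at positions 6 to 8 and all others at 23 to 29, and peaks on RNU6-7 and RNU6-8 end at 96 to 99.

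The copies fell into a pair of groups by where the peak stopped, a grouping made after the values were seen. On RNU6-7 and RNU6-8 the peaks ended at 97 and 96 with HSPA1A and at 98 and 99 with HSPA8, replicate 1 first. RNU6-1, RNU6-2 and RNU6-9 had ends at 101 to 104, 104 to 105, 107 and 107 in the same lists. The ends of the groups did not overlap in any list, but the groups were formed by these ends, so this is no separate result. Starts of the groups differed by at most 3 nt within a list. The scores separated in the same way. This is no separate result either, since the copies are not independent observations and the values had been seen. RNU6-7 and RNU6-8 had 168 and 169 against 183 to 193 in HSPA1A replicate 1, and 54 against 62 to 63 in replicate 2. In the HSPA8 lists they had 90 and 91 against 115 to 121, and 40 against 51.

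All 20 U6 peaks shared positions 29 to 96, which are 68 nt or 63.6% of the RNA, and positions 1 to 5 lay under none of them. In the HSPA1A lists, positions 1 to 22 and 106 to 107 were outside every peak. HSPA8 peaks reached the last position of the gene on RNU6-1, RNU6-2 and RNU6-9 in both replicates and on RNU6-7 and RNU6-8 in neither. The middle of the RNA, where U6 pairs with its partners, thus lay under a peak on every copy in every list, while positions 8 to 22 lay under a peak on every copy in HSPA8 replicate 2 and on none in the other lists.

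**Figure D2:**
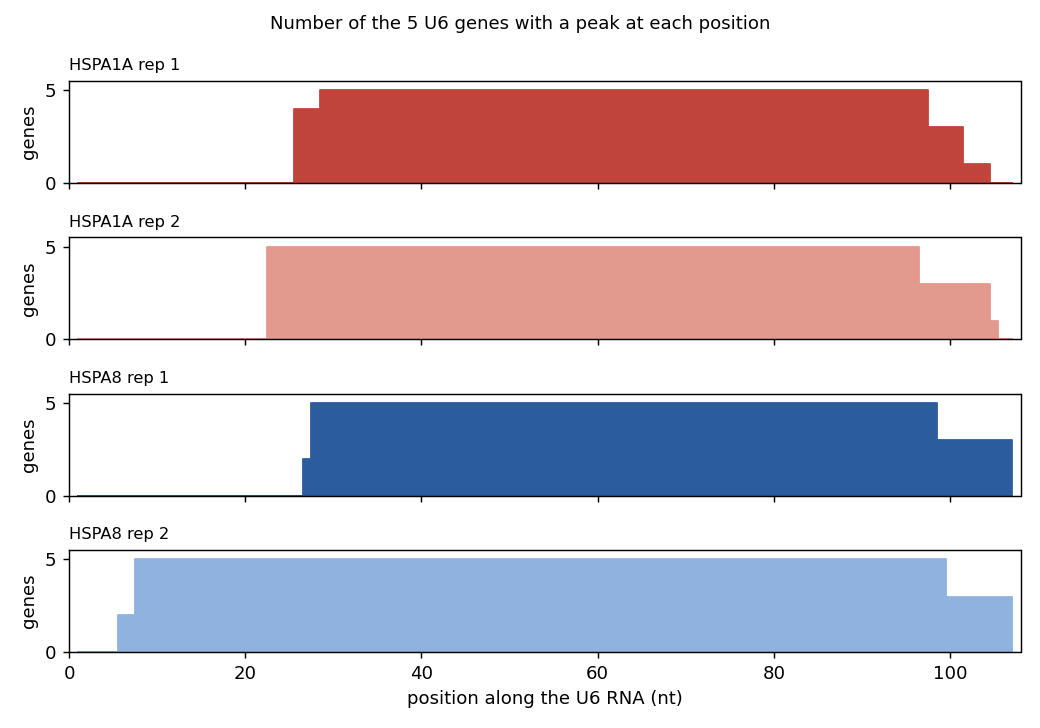
Number of the 5 U6 genes with a peak at each position of the RNA, in nt, with 1 panel per list. Positions 29 to 96 are covered on all 5 genes in each panel, and positions 8 to 22 on all 5 genes in HSPA8 replicate 2 and on 0 in the other panels.

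The files also bound an inner interval inside each peak, whose meaning is not stated. It ran from between 41 and 42 to between 83 and 87 on the U6 genes in HSPA1A replicate 1, and from between 35 and 36 to between 78 and 80 in replicate 2. In HSPA8 replicate 1 it ran from between 36 and 41 to between 82 and 91. In HSPA8 replicate 2 it was wider, 69 bp on RNU6-1, RNU6-2 and RNU6-9 and 87 bp on RNU6-7 and RNU6-8, against 42 to 51 bp in the other lists. Positions 42 to 78, or 37 nt, lay inside all 20 inner intervals.

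Peak width on the U6 genes ranged from 72 to 76 bp in HSPA1A replicate 1, from 74 to 83 bp in replicate 2, from 71 to 81 bp in HSPA8 replicate 1 and from 94 to 100 bp in replicate 2. The median width over whole lists was 48, 44, 57 and 51 bp. U6 peaks were thus wide for their lists: 77.5%, 89.7%, 72.0% and 86.2% of peaks in the same order were narrower than the U6 median.

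The baits were compared over lists with an exact two-sided permutation test, whose smallest possible p with 2 lists per bait is 0.333. Across the 6 genes the number of peaks was 5 and 6 for HSPA1A and 5 and 5 for HSPA8, a difference of -0.5 (HSPA8 minus HSPA1A, exact permutation p = 1). The 1 extra peak was that on RNU6ATAC. Peaks covered 56.3% and 63.2% of the bases of the 6 genes with HSPA1A, a mean of 59.8% ± 4.92 (SD, n = 2). HSPA8 gave 58.1% and 73.8%, a mean of 66.0% ± 11.1 (SD, n = 2). The difference of 6.20 percentage points was smaller than the spread between the HSPA8 replicates (exact permutation p = 0.667). Without HSPA8 replicate 2 it was -1.66, the opposite direction.

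The median U6 peak started at position 26 and 23 with HSPA1A and at 28 and 8 with HSPA8. The HSPA8 values lay on both sides of those of HSPA1A, so the mean difference of -6.5 nt was within the spread between replicates (exact permutation p = 1). Without HSPA8 replicate 2 it was 3.5 nt. The median end was at 101 and 104 with HSPA1A, a mean of 102.5 ± 2.12 nt (SD, n = 2), and at 107 in both HSPA8 lists, where the gene ends. Ends of the baits did not overlap at the median, with a difference of 4.5 nt (exact permutation p = 0.333, the smallest possible). Over the 6 genes the HSPA1A lists had a median width of 76 and 78 bp, against 80 and 100 bp in the HSPA8 lists, a difference of 13 bp (exact permutation p = 0.333). Over the 5 U6 genes alone the difference was 11 bp and the baits overlapped, since the median was 82 bp in HSPA1A replicate 2 and 80 bp in HSPA8 replicate 1 (exact permutation p = 0.667). Over the 6 genes the difference was 3 bp without HSPA8 replicate 2 and 23 bp without HSPA8 replicate 1.

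Each peak has a whole-number score from the authors, whose meaning is not stated. Scores were compared only within their own list, mostly by rank. The cut at 90% of the lowest U6 score, used for pseudogenes below, is a ratio on a scale that is not known. The 5 U6 genes had scores of 168 to 193 in HSPA1A replicate 1, 54 to 63 in HSPA1A replicate 2, 90 to 121 in HSPA8 replicate 1 and 40 to 51 in HSPA8 replicate 2. RNU6-9 had the highest score of the copies in the first 3 of these lists and shared it with RNU6-1 and RNU6-2 in the last. The peak of RNU6-1 scored 183, and 393 of the 2744 peaks of HSPA1A replicate 1 scored higher. In HSPA1A replicate 2 it scored 62, below 416 of 2059 peaks. In HSPA8 replicate 1 it scored 115, below 670 of 3131, and in HSPA8 replicate 2 it scored 51, below 668 of 2040. U6 peaks were therefore in the upper part of every list and well below its highest score, which was 3014 or more.

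The RNU6ATAC peak of HSPA1A replicate 2 ran from 134164456 to 134164478 on the minus strand, 23 bp wide, and covered 18.3% of the gene. Its score of 9 was at the 37.6th percentile of the list, against 78.0 to 79.9 for the U6 genes. Counted along the strand of the peak it lay from position 87 to 109. In the same list, 5 of the 41 U6atac pseudogenes carried a peak of 23 bp with a score of 8, and on RNU6ATAC2P, RNU6ATAC5P and RNU6ATAC41P it also lay from 87 to 109. The other 3 lists had a peak on 0 of the 41. The RNU6ATAC peak is therefore uncertain between copies too.

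The other spliceosomal snRNA genes were set beside U6 within each list. Of the 15 genes, for U1, U2, U4, U5, U11, U12 and U4atac, 15 had a peak in each HSPA1A list, 14 in HSPA8 replicate 1 and 15 in HSPA8 replicate 2. Over all genes the share with a peak was 3.04% and 2% for HSPA1A and 3.05% and 1.28% for HSPA8. The U6 genes had 1 peak each, while 10, 12, 8 and 9 of the 15 had more than 1, with lists in that order. U1, which recognises the 5′ splice site, and U2, which pairs with the branch site, ranked above U6 in every list. RNU1-1 had a best score of 1971, 1353, 1064 and 770, and RNU2-1 had 1472, 852, 728 and 609.

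U4, the partner that holds U6 inactive before splicing, ranked below it. Its gene RNU4-2 scored 37, 37, 58 and 13 at best, with lists in that order, and RNU4-1 had 35, 14, 36 and 4. Every U6 gene exceeded both U4 genes in each list. RNU4ATAC, the partner of U6atac, had 11, 5 and 6 in the lists other than HSPA8 replicate 1, where it carried 0 peaks. U5, which aligns the exons, varied by gene and list. RNU5A-1 had 186 and 169 with HSPA1A and 78 and 94 with HSPA8. These scores were above the U6 median of 183, 62 and 51 in 3 lists and below that of 115 in HSPA8 replicate 1. RNU5B-1 fell on the same sides as RNU5A-1. RNU5D-1 and RNU5E-1 were above the U6 median only in the lists numbered 2. RNU5F-1, with 64, 50, 34 and 23, was below it in every list. Of the 15 genes, 7, 11, 5 and 11 scored above the U6 median.

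**Figure D3:**
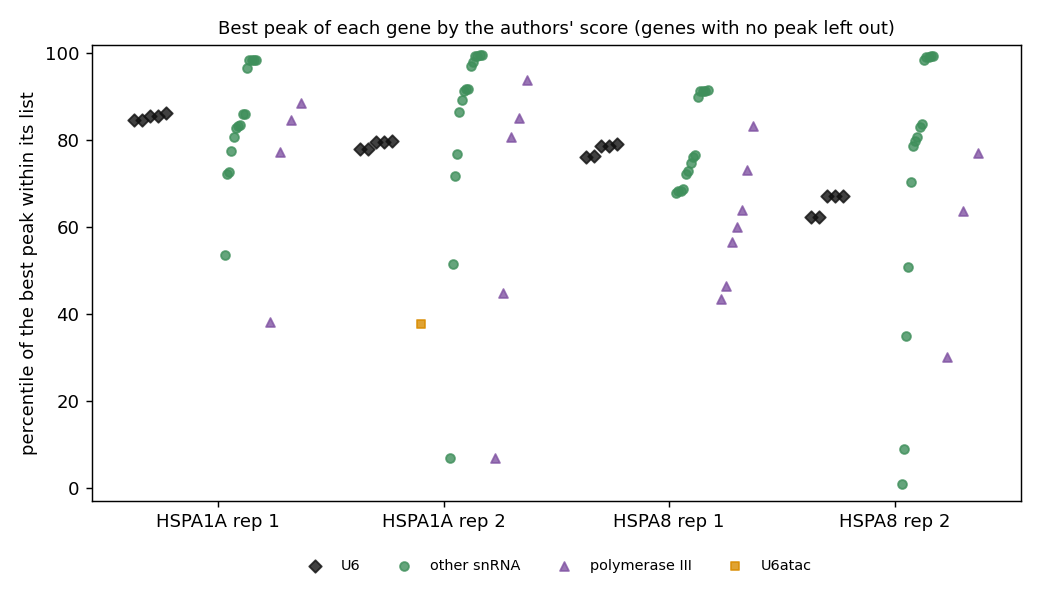
Percentile of each gene's best peak within its own list by the authors' score, for the 5 U6 genes, RNU6ATAC, 15 other snRNA genes and 7 polymerase III genes; genes with no peak are left out. The U6 genes sit close together in each list, with other snRNA genes above and below them, and RNU6ATAC appears in HSPA1A replicate 2 alone.

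The share of bases under a peak was compared with the same genes. It was 69.5% and 73.8% with HSPA1A and 71.8% and 91.2% with HSPA8 over the 5 U6 genes, and 73.3%, 65.4%, 84.1% and 58.4% over the 15 other snRNA genes. The mean difference was 6.30 percentage points ± 19.6 (SD over 4 lists), positive in 2 lists and negative in 2 (exact sign-flip permutation, p = 0.75, two-sided, where 0.125 is the lowest attainable; a test added after seeing the data). Without HSPA8 replicate 2 it was -2.55. That list held the extremes of both sets: the U6 genes were covered most there and the other snRNA genes least. RNU2-1 was low in both lists of that number, with 15.4% and 16.5% of its length covered. In the lists numbered 1 it had 66.0% and 92.0%. RNU5F-1 went the other way, with 31.4% and 54.2% in the lists numbered 1 and 65.3% and 72.9% in those numbered 2. RNU2-1 therefore does not stand for the set.

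**Figure D4:**
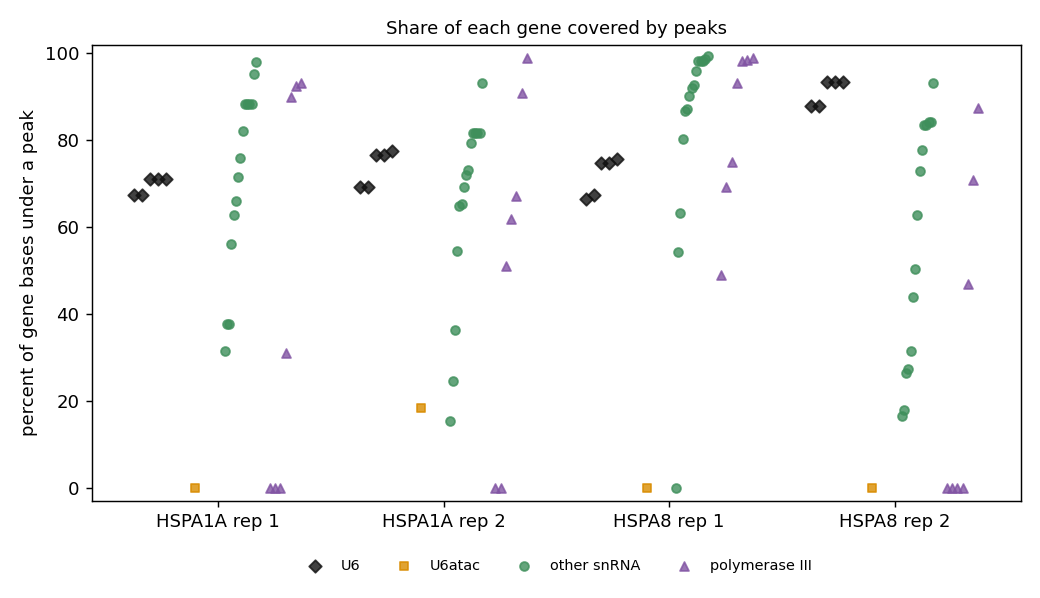
Percent of the bases of each gene under a peak, by list, for the same 4 sets of genes. The U6 genes lie between 66.4% and 93.5%, while single genes of the other snRNA set range from 0% to 99.3%.

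Genes that share the U6 kind of polymerase III promoter were compared next. RN7SK, whose RNA restrains the elongation factor P-TEFb, RMRP, the RNA of RNase MRP, and RPPH1, the RNA of RNase P, carried a peak in all 4 lists as the U6 genes did. The Y RNA genes did not: RNY1, RNY3 and RNY4 had a peak in 2 lists and RNY5 in 1. By best score, 1, 3, 1 and 1 of the 7 genes ranked above the U6 median in the 4 lists. RN7SK was above it with 273 and 103 for HSPA1A and with 228 for HSPA8 replicate 1. In HSPA8 replicate 2 it had 42, below the U6 median of 51. RPPH1 had 60, 67, 22 and 11, which was above the U6 median of 62 in HSPA1A replicate 2 alone.

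The score pattern most like that of U6 was looked for among 96 snRNA and polymerase III genes with a peak in all 4 lists. Likeness was the mean absolute difference in percentile from the U6 median over the 4 lists, and pseudogenes were not included. The nearest were RNVU1-14 at 2.48 percentile points, RNVU1-17 at 3.39, RN7SK at 4.20, RNU5D-1 at 4.70 and TRD-GTC2-10 at 5.39. The RNVU1 genes are variant U1 genes and TRD-GTC2-10 is an aspartate tRNA gene, both from families with many like copies.

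The genome holds many U6 pseudogenes, copies that were inserted from RNA and mostly lack a promoter. Of 1277 in the table, HSPA1A peaks fell on 82 (6.42%) in replicate 1 and 52 (4.07%) in replicate 2, and HSPA8 peaks on 52 (4.07%) and 46 (3.60%). These shares were below those of all genes of at most 300 bp, which were 8%, 5.92%, 6.62% and 4.48%. A peak was listed at 83 of the 1277 pseudogenes in any list and at 35 in all 4. Of all genes of at most 300 bp, 3.16% had a peak in all 4. In each list 8 pseudogenes had a score of at least 90% of the lowest U6 score, and they were the same 8: RNU6-3P, RNU6-4P, RNU6-5P, RNU6-6P, RNU6-11P, RNU6-33P, RNU6-36P and RNU6-37P. RNU6-6P had scores of 179, 61, 113 and 50, within 4 of RNU6-1 in each list, and its peak ran over nearly the same positions, from 28 to 101, 25 to 104, 28 to 107 and 8 to 107. RNU6-37P and RNU6-11P had the positions of RNU6-7 in HSPA1A replicate 1, from 26 to 97, with scores of 161 against 168. In HSPA1A replicate 2 their peaks ended at 89 and 82 against 96 on RNU6-7, and in HSPA8 replicate 1 at 91 and 92 against 98.

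Most other pseudogene peaks were narrow and low. Those under 50 bp scored at most 87, 26, 37 and 17 in the 4 lists, while those of 60 bp or more scored at least 136, 35, 75 and 21. Peaks from 50 bp to under 60 bp are in neither set and varied widely. In HSPA1A replicate 1, for example, a peak of 52 bp on RNU6-41P scored 15 and a peak of 57 bp on RNU6-15P scored 122. The median over all pseudogene peaks was 15, 8, 17 and 13. Wider pseudogene peaks thus tended to have the higher scores, and the U6 genes lay at the wide, high end. Whether scores on the copies come from reads divided among them was not tested.

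**Figure D5:**
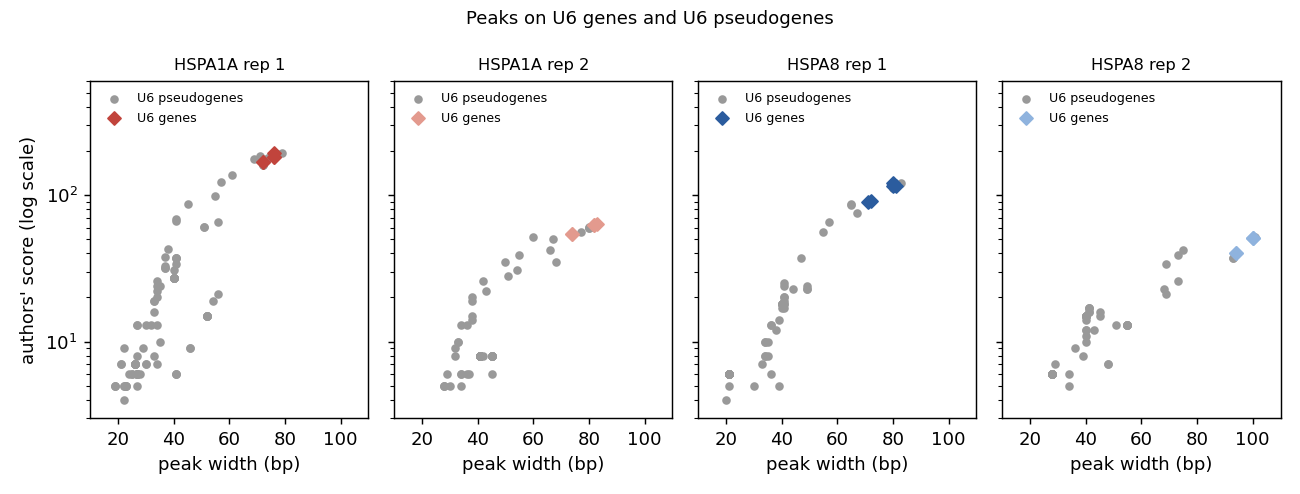
The authors' score, on a log axis, against peak width in bp for peaks on U6 pseudogenes (grey) and on the 5 U6 genes (coloured diamonds), with 1 panel per list. The U6 genes lie among the widest and highest-scoring peaks, together with 8 pseudogenes, and pseudogene peaks under 50 bp score at most 87.

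Proteins that make, modify or hold U6 were examined at their own genes. Of 24 genes, among them the LSM2 to LSM8 ring, SSB (La), the capping enzyme MEPCE, the methyltransferase METTL16, USB1, TUT1, SART3 and the U4/U6 proteins PRPF3, PRPF4 and PRPF31, 1, 1, 2 and 1 carried a peak in the 4 lists. These are shares of 4.17%, 4.17%, 8.33% and 4.17%, against 3.04%, 2%, 3.05% and 1.28% of all genes. The 24 genes are 5329 to 96174 bp long, while all genes include many of at most 300 bp. Gene length was not matched, so the shares are not like for like. TXNL4A, a U5 protein, had 3 peaks with HSPA1A, all in replicate 1, and 2 and 1 with HSPA8, with scores of 5 to 28. PRPF8, the scaffold around the U6 active site, carried 2 peaks in HSPA8 replicate 1, and LSM3 carried 1 in HSPA1A replicate 2, all scored 5. The strand of these genes was not used, so these peaks may lie against the direction of the gene.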

How the data were processed

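Peaks were deposited as BED lists, 1 per replicate, for HSPA1A and HSPA8. Per the submitters' processing notes, tools included Trim Galore 0.4.4, FastQC, STAR 2.6.0b and deepTools, with genome GRCh38. Per the labels' protocols, random tags served to merge PCR duplicates. The peak caller, its threshold, the handling of reads matching several places and the meaning of the deposited score are not given in the sources used here. The authors gave each peak an integer score and an inner interval, which lay inside the peak in every row. Read depth is unknown, so no interval for counting error is given.

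Positions were converted to 1-based coordinates and set against the RefSeq gene table for GRCh38.p14, which gives no strand. Overlap needed at least 1 bp and ignored strand. Score percentiles are mid-ranks within a list. The 6 possible orders of bait labels gave the exact permutation test between baits. Alternatives were a higher score, a larger overlap, 1 U6 copy, merging of peaks within 50 bp, a block for the replicate number and the omission of single replicates. Each p-value is the share of label orders or sign flips whose difference is at least as large as that seen. Lists are the units. The genes and comparison lists were chosen with earlier results of these data known. Named genes are the members, the listed comparison genes, the protein genes with a peak and the 5 genes most like U6; pseudogenes and protein genes with no peak were named after values were seen. Overlap and position steps were tested on simulated data. Python 3.11.15, numpy 2.4.6, pandas 2.3.3 and matplotlib 3.10.9 were used.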

Additional observations from a re-analysis of the deposited data

How the results depend on the processing

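Of 56 values under other settings, 48 kept their direction, 5 reversed and 3 became 0. No test could pass a threshold of 0.05 with these numbers of lists, so unchanged calls say nothing about stability. The difference in peaks between baits (HSPA8 minus HSPA1A) was 0 with peaks scored above the list median and 0 without RNU6ATAC, since the RNU6ATAC peak made it up, and it lay between -1 and 0 with single replicates left out. The difference in covered bases was -0.215 percentage points with RNU6-1 in place of the 5 U6 genes, where RNU6ATAC weighs more by construction, and lay between -1.66 and 14.1 over the settings without one replicate. For those settings the start difference lay between -16.5 and 3.5 nt. The difference in covered bases between U6 and other snRNA genes was -3.59 with the inner interval of the peak, the cause of which was not tested, and lay between -2.55 and 12.5 without one list. The inner interval, the setting without RNU6ATAC and the comparison with other snRNA genes were chosen after seeing the data. With the inner interval the bait difference was 12.7 percentage points for covered bases, 14 nt for the end and -2.5 nt for the start. The width difference was 25.75 bp with RNU6-1 in place of the 5 U6 genes. The RNU6ATAC peak of 23 bp in HSPA1A replicate 2 weighs more there by construction. RNU6-1 peaks alone were 76 and 82 bp wide with HSPA1A and 80 and 100 bp with HSPA8, so the baits overlapped. Without one replicate, the width difference over the 6 genes lay between 3 and 23 bp and the end difference between 3 and 6 nt. With the replicate block the differences stayed at 6.20 percentage points for covered bases, 13 bp for width and 4.5 nt for the end (exact sign-flip permutation p = 0.5 for each, the smallest possible), and at -0.5 peaks and -6.5 nt for the start (p = 1 for each, same test). The labels give no day or batch behind the replicate numbers, and deviations of same-numbered lists in covered percent correlated at -0.00117 over 28 genes. These include the 5 U6 copies and so are not independent points. The value therefore cannot decide whether lists of the same number share an effect. The restriction to the strand of the gene was not run because the gene table gives no strand.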

Other observations

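Pseudogenes of nearly full length, 100 to 110 bp, carried peaks at places where the U6 genes did not have separate ones. In HSPA1A replicate 1, 18 of their 85 peaks ended by position 60 and 35 began at position 60 or later, and 9 pseudogenes had both kinds. In HSPA1A replicate 2 these counts were 7, 14 and 5, with 52 peaks. In HSPA8 replicate 1 they were 1, 28 and 1, with 53 peaks, and in HSPA8 replicate 2 they were 10, 24 and 6, with 51 peaks. Scores were low, at most 21, 8, 5 and 13 for the early kind and 37, 8, 20 and 17 for the late kind. Many of these peaks were alike, so the counts are not counts of separate sites. In HSPA1A replicate 1, RNU6-13P, RNU6-19P, RNU6-32P and RNU6-45P each had a peak from 67 to 106 with a score of 27. Positions are counted along each pseudogene on the strand of the peak. The direction of the pseudogenes was not checked, so which end of U6 a position stands for is unknown, and insertions or deletions within it were not corrected for.

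Peaks that began by position 22 of such a pseudogene numbered 19 and 8 in the HSPA1A lists. Many were alike, with 12 and 2 distinct combinations of position and score. The highest scores, 66 and 35, were both on RNU6-25P, from 21 to 76 and from 11 to 78, and without it the highest were 21 and 8. The peaks of the U6 genes themselves began at 26 or later and at 23 in those lists. In HSPA8 replicate 1 there was 1 such pseudogene peak, with a score of 5. In HSPA8 replicate 2 there were 19, with 11 distinct combinations of position and score. The highest score there, 52, was on RNU6-4P, from 7 to 107. U6 gene peaks began at 27 to 28 in HSPA8 replicate 1 and at 6 to 8 in HSPA8 replicate 2.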
